A study of Rattus norvegicus with 54 samples.

Results

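The myostatin, activin and follistatin system was examined as 10 genes of the 40319 listed in the count tables: the ligands Mstn, Inhba, Inhbb, Gdf11 and Gdf15, the binding proteins Fst, Fstl1 and Fstl3, and the receptors Acvr2a and Acvr2b. They were matched by symbol, and each of the 10 was listed in all 54 libraries. The libraries came from the left ventricle of 18 female athymic rats (strain F344/NJcl-rnu/rnu), 8 weeks old at surgery. The sham group had surgery without infarction, in the untreated MI group the proximal left anterior descending artery was permanently ligated, and in the cell sheet-treated group the same ligation was followed by a bi-level sheet on the epicardium over the ischemic area. The sheet held human endothelial progenitor cells (EPCs) from blood and smooth muscle cells (SMCs) derived from human bone marrow stromal cells. All hearts were taken 1 week after surgery, and each of the 6 hearts of a group gave an infarct zone (anterior wall), a border zone (lateral wall) and a remote zone (septum) library. The athymic host lacks T cells, the human cells are a xenograft, and reads were aligned to the rat genome only, so that the share of any count that came from human RNA was not tested.

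Activins are dimers of the beta subunits encoded by Inhba and Inhbb. With myostatin (Mstn), GDF11 and other ligands of the TGF-beta superfamily, they bind the type II receptors encoded by Acvr2a and Acvr2b, which recruit a type I receptor that phosphorylates Smad2 and Smad3. Follistatin (Fst) and follistatin-like 3 (Fstl3) bind and neutralise activins and myostatin, whereas follistatin-like 1 (Fstl1), despite its name, is a secreted glycoprotein of mesenchymal cells. Myostatin restrains skeletal muscle mass and is made at low levels in heart muscle, and GDF15 is a stress-induced hormone that acts on a receptor in the hindbrain. Activin A is known for its release after tissue injury and in fibrosis.

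Between 12699204 and 23397754 counts fell on genes per library. Levels are read counts scaled to library size (CPM, with the factors of the trimmed mean of M values, TMM), given as the lowest, median and highest of the 6 hearts of a group. Fold changes are on the log2 scale with the standard error (SE) from edgeR's quasi-likelihood fit, and a gene was called where its Benjamini-Hochberg adjusted p over all genes tested was under 0.05. Gene lengths were not used, so levels are compared between groups and not between genes. In these bulk samples, fewer cells of a type and less RNA per cell cannot be told apart. Cardiomyocyte markers were present in every group and fell after MI, with 6 of 6 lower in the infarct and border zones and 4 of 6 in the remote zone. Sham replicate 5 stood apart from the other sham hearts in all zones, with macrophage scores (mean log2 CPM of the list) of 6.82 in the remote, 7.09 in the border and above 7 in the infarct zone beside sham medians of 4.87 to 5.35. In the remote zone, cell sheet replicate 1 had the highest fibroblast score of its group, 9.40 beside a median of 7.74. In the border zone the same heart had a cardiomyocyte score of 3.69 beside a median of 10.7. Calls that changed without 1 of these hearts are given beside the value with all hearts.

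After MI, Inhba, Inhbb and Fstl1 were called higher in all 3 zones and Fst and Fstl3 in the infarct and border zones. Acvr2a was called lower in the border zone and Acvr2b in the infarct zone. The estimates of these genes had the same sign in all 3 zones. For Acvr2a, Acvr2b and Fstl3, the effect of MI in the infarct zone minus that in the remote zone was not called. The values were -0.17 (adjusted p = 0.376), -0.08 (adjusted p = 0.832) and 0.58 (adjusted p = 0.135). In the infarct zone, 6 of the 9 members tested were called, 5 higher and 1 lower, against a background of 49.9% of 15758 genes (22.7% higher and 27.2% lower). The border zone had 6 of 8 called, 5 higher and 1 lower, beside 41.7% of all genes (18.4% higher and 23.2% lower). Of the 9 tested in the remote zone, 3 were called, all higher, where 25.8% of genes were called (11.7% higher and 14.2% lower). The median log2 fold change of the tested members was 1.06, 1.29 and 0.57 in the 3 zones, and that of all genes tested was -0.02, -0.02 and -0.04. Without sham replicate 5, the remote zone had 7 members called instead of 3. The 25.8% of all genes comes from the fit with all hearts and is not the background of these 7. The share of all genes called without that heart is not given here, so the 7 cannot be read as a result about the members.

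Cell sheet-treated and untreated MI hearts were compared next, and these comparisons share the untreated MI libraries with those against sham. None of the 8 members tested was called in the infarct zone, with 0 at an unadjusted p under 0.05 and 0 by DESeq2, and the background was 0 of 16196 genes by edgeR, 1341 at an unadjusted p under 0.05 and 59 by DESeq2. The border zone had 1 of 8 called, Acvr2a, which was higher, beside 18.0% of all genes (8.47% higher and 9.48% lower). The remote zone also had 1 of 8 called, Inhbb, which was lower, beside 17.1% of all genes (10.3% higher and 6.79% lower). Without cell sheet replicate 1 there were 4 members called in the remote zone. The 17.1% of all genes belongs to the fit with all hearts and is not the background of these 4. The share without replicate 1 is not given here either, so the 4 cannot be read as a result about the members. On the infarct and border counts summed per animal, 1 of 9 was called, again Acvr2a, beside 12.1% of genes (6.02% higher and 6.09% lower). The members' medians of 0.09 (infarct), -0.08 (border) and -0.09 (remote) lay near 0.

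Against sham, the cell sheet-treated hearts had 6 of 8 members called in the infarct zone, 5 higher and 1 lower, where 57.9% of all genes were called (28.6% higher and 29.2% lower). Of the 8 tested in the border zone 5 were higher, beside 43.6% of genes (20.4% higher and 23.2% lower). For the remote zone edgeR called none of 8, with 2 at an unadjusted p under 0.05 and 0 by DESeq2. The background there was 0.00660% of 15157 genes, a single gene that was higher, with 1520 genes at an unadjusted p under 0.05 and 180 called by DESeq2.

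**Figure D1:**
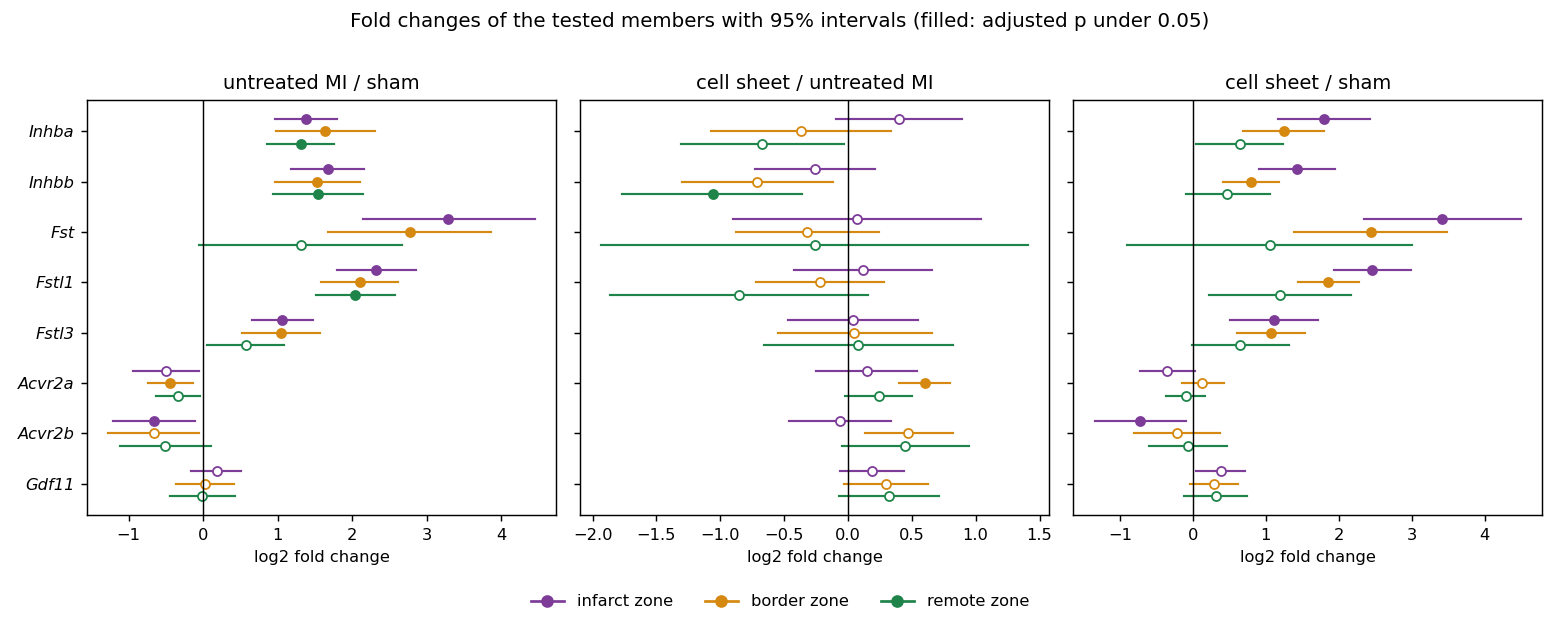
Log2 fold changes of the 8 members with a test in every comparison, for untreated MI against sham (left), cell sheet against untreated MI (middle) and cell sheet against sham (right). Points are estimates, bars 95% intervals, colours zones and filled points adjusted p under 0.05. Inhba, Inhbb, Fst, Fstl1 and Fstl3 lie to the right of 0 in the left panel, while in the middle panel 2 points are filled, Acvr2a in the border zone and Inhbb in the remote zone.

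The upstream sequences of the activin subunit genes and of the follistatin-like genes that rose with them are shown so that their promoters can be compared. RefSeq gave 9 promoters for 8 of the 10 members, on the GRCr8 assembly, and the counts were made on mRatBN7.2. Each line holds the 250 bases before the annotated start, and capitals mark TATAAA or CCAAT, read on either strand.
Inhba (chr17:53804509-53804758, minus strand): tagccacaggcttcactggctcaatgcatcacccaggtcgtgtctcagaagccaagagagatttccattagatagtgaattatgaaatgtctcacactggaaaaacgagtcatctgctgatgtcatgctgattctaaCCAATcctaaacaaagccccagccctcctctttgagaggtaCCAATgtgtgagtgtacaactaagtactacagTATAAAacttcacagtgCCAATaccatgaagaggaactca
Inhbb (chr13:33089374-33089623, minus strand): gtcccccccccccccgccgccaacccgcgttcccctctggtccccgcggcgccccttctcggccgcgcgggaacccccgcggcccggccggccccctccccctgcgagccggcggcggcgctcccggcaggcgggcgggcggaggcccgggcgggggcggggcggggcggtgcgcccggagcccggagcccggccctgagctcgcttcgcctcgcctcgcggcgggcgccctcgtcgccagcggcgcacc
Fstl1 (chr11:76454054-76454303, minus strand): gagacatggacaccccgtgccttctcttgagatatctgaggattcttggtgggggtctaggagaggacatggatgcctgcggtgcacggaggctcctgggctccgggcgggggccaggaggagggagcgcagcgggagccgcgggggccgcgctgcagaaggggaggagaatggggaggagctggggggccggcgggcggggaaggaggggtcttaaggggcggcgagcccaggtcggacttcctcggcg
Fstl3 (chr7:10579845-10580094, minus strand): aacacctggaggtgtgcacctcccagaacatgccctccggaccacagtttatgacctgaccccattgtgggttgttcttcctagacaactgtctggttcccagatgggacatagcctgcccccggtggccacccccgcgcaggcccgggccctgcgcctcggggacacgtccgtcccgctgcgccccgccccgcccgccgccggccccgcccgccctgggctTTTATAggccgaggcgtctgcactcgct
The Inhba stretch, with a GC content of 43.6%, held TATAAA 40 bases before the start and CCAAT at 113, 72 and 23 bases before it. Inhbb, at 86.8% GC, and Fstl1, at 70% GC, held neither motif, and Fstl3, at 68.8% GC, held TATAAA on the opposite strand 28 bases before the start. Of the 9 member promoters 4 held TATAAA and 3 held CCAAT, compared with 12.9% and 34% of 33469 rat promoters of that length. The letters TGANTCA (bound by AP-1), TGACGTCA (the cyclic AMP response element) and GGAATG (bound by TEAD factors) occurred in none of the 9, and in 6.34%, 1.59% and 12.1% of all promoters.

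Inhba, which encodes the subunit of activin A, rose after MI in every zone. Sham hearts of the infarct zone held 4.88, 8.48 and 10.6 CPM (lowest, median and highest) and untreated MI hearts 17.7, 20.4 and 26.0 CPM. The 2 groups did not overlap, and the log2 fold change was 1.38 (SE 0.19, adjusted p = 0.000337). Border zone sham hearts lay at 4.77, 8.51 and 9.94 CPM and untreated MI hearts at 9.09, 24.6 and 40.4 CPM, a log2 fold change of 1.64 (SE 0.31, adjusted p = 0.00252) with the lowest MI heart inside the sham range. Remote zone levels were 7.16, 9.36 and 10.95 CPM in sham and 15.1, 21.1 and 38.0 CPM in untreated MI. All 6 MI hearts lay above all sham hearts there too, and the difference was 1.31 (SE 0.21, adjusted p = 0.0015). The effect of MI on Inhba in the infarct zone minus that in the remote zone was 0.17 on the log2 scale, with a 95% interval from -0.43 to 0.77, and was not called.

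Cell sheet-treated hearts held 14.1, 28.1 and 39.4 CPM of Inhba in the infarct zone and 9.91, 19.9 and 28.6 CPM in the border zone. Both groups overlapped with untreated MI. The differences from MI were 0.40 (SE 0.23, 95% interval -0.09 to 0.89, adjusted p = 0.681) and -0.37 (SE 0.33, -1.07 to 0.34, adjusted p = 0.475). Against sham, both zones were higher, by 1.80 (SE 0.29, adjusted p = 0.000446) and 1.25 (SE 0.26, adjusted p = 0.00225). The remote zone of treated hearts held 10.4, 11 and 29.3 CPM, and only replicate 1 exceeded 12.6 CPM.

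Inhbb, the subunit of activin B, also rose after MI in every zone. Sham hearts held 5.12, 6.59 and 10.6 CPM in the infarct zone and untreated MI hearts 18.4, 20.4 and 35.7 CPM. In the border zone the values were 7.34, 9.52 and 11.7 CPM against 13.6, 24.6 and 48.7 CPM, and in the remote zone 5.25, 7.31 and 8.99 CPM against 11.03, 17.9 and 39.4 CPM. In none of the 3 zones did the groups overlap. The log2 fold changes were 1.67 (SE 0.22, adjusted p = 0.000264), 1.53 (SE 0.26, adjusted p = 0.00168) and 1.54 (SE 0.28, adjusted p = 0.00257). With the cell sheet, Inhbb stood at 10.97, 19.2 and 25.1 CPM in the infarct zone, 9.38, 17.2 and 19.5 CPM in the border zone and 6.90, 8.16 and 18.8 CPM in the remote zone. All 3 ranges overlapped with those of untreated MI. The difference from MI was -0.26 (SE 0.22, adjusted p = 0.771) in the infarct zone, -0.71 (SE 0.27, adjusted p = 0.0932) in the border zone and -1.06 (SE 0.33, adjusted p = 0.0413) in the remote zone. The remote zone call was lost in 9 of 18 alternative analyses, with adjusted p between 0.00265 and 0.104. Inhbb was above sham in the infarct and border zones of treated hearts, by 1.42 (SE 0.24, adjusted p = 0.000584) and 0.80 (SE 0.18, adjusted p = 0.0038).

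**Figure D2:**
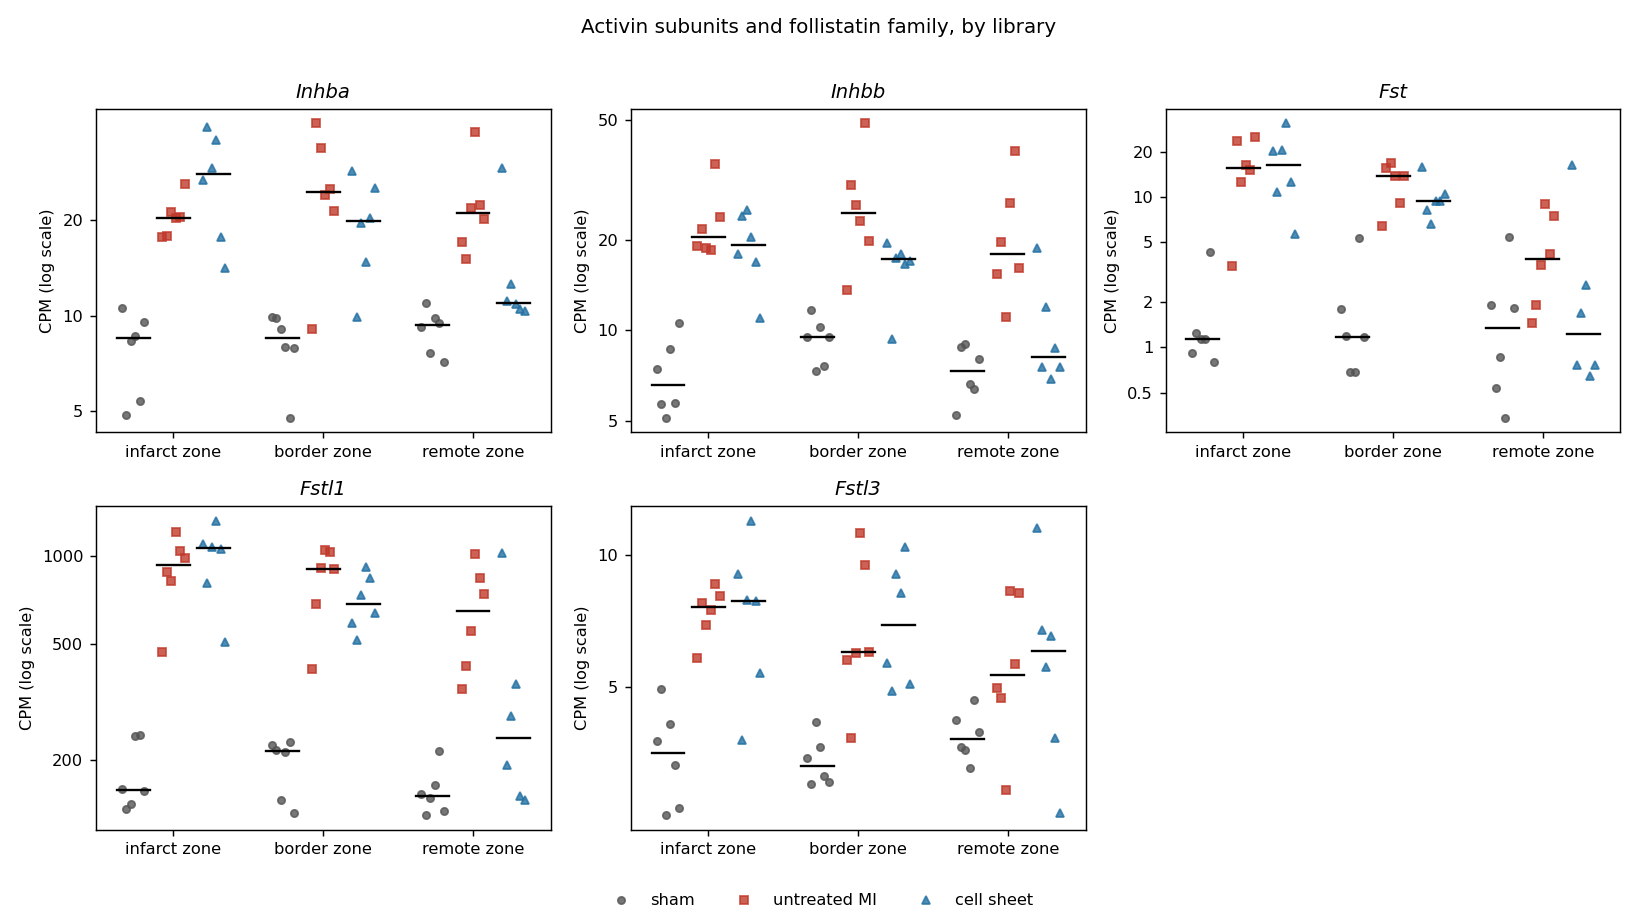
CPM (log scale) of the activin subunit genes Inhba and Inhbb and of Fst, Fstl1 and Fstl3 in each library, by zone and treatment. Each point is 1 heart and lines are group medians. For Inhbb and Fstl1 all untreated MI hearts lie above all sham hearts in each zone, and in the remote zone cell sheet replicate 1 is the highest treated heart for all 5 genes.

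Fst, the activin and myostatin antagonist, showed the largest fold change of the members tested after MI in the infarct and border zones. Infarct zone levels were 0.796, 1.13 and 4.30 CPM in sham and 3.503, 15.7 and 25.1 CPM in untreated MI. Here 1 heart of each group crossed the other group's range, sham replicate 5 and MI replicate 1, and the log2 fold change was 3.29 (SE 0.53, adjusted p = 0.000757). Border zone levels were 0.681, 1.18 and 5.34 CPM in sham and 6.37, 13.8 and 16.8 CPM in untreated MI, without overlap, at 2.77 (SE 0.50, adjusted p = 0.00221). Remote zone levels overlapped, with 0.341, 1.35 and 5.43 CPM in sham and 1.46, 3.86 and 8.95 CPM in untreated MI, and the difference of 1.31 (SE 0.63, adjusted p = 0.144) did not pass the test. Sham replicate 5 was the highest sham heart in each zone, and the other 5 sham hearts did not exceed 1.92 CPM. Without it the log2 fold changes were 3.92, 3.51 and 2.07, and the remote zone passed with an adjusted p of 0.00546.

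The effect of MI on Fst was larger in the infarct zone than in the remote zone, by 1.88 on the log2 scale (SE 0.52, 95% interval 0.76 to 2.99, adjusted p = 0.017). It was the single member of 9 called in that test, where 28.9% of 16445 genes were called (13.6% higher and 15.3% lower), and it was called in all 15 alternatives that gave it a value. Within untreated MI hearts, Fst was higher in the infarct than in the remote zone by 1.84 (SE 0.32, adjusted p = 0.00903). In that comparison of zones within the same hearts 3 of 9 members were called, 2 higher and 1 lower, beside 36.4% of all genes (18.3% higher and 18.1% lower). Fstl1 was the other member higher in the infarct zone, by 0.51 (SE 0.15, adjusted p = 0.0296), a call lost in 5 of 11 alternatives with an adjusted p of up to 0.194. Acvr2a was lower, by -0.48 (SE 0.12, adjusted p = 0.0194), and that call was lost in 3 of 11.

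Fst in treated hearts was 5.69, 16.4 and 30.8 CPM in the infarct zone and 6.60, 9.40 and 15.9 CPM in the border zone. Neither difference from untreated MI was called, with log2 fold changes of 0.07 (95% interval -0.90 to 1.04) and -0.32 (-0.88 to 0.24). Treated hearts exceeded sham in both zones, by 3.42 (SE 0.50, adjusted p = 0.00025) and 2.44 (SE 0.48, adjusted p = 0.00182). The remote zones of treated hearts held 0.650, 1.24 and 16.2 CPM, of which 16.2 CPM was replicate 1 and the next highest heart had 2.58 CPM.

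Fstl1 rose after MI in every zone, and it was the member with the lowest adjusted p. Infarct zone levels were 136, 159 and 243 CPM in sham and 471, 932 and 1203 CPM in untreated MI. The border zone held 132, 215 and 231 CPM against 410, 904 and 1051 CPM, and the remote zone 130, 151 and 216 CPM against 350, 646 and 1012 CPM. No MI heart overlapped with a sham heart, and the log2 fold changes were 2.32 (SE 0.24, adjusted p = 6.54e-05), 2.10 (SE 0.24, adjusted p = 0.000188) and 2.04 (SE 0.25, adjusted p = 0.000584). Treated hearts had 506, 1066 and 1319 CPM in the infarct zone and 516, 687 and 915 CPM in the border zone. The differences from untreated MI were not called, at 0.12 (95% interval -0.42 to 0.66) and -0.22 (-0.72 to 0.28). In these 2 zones treated hearts exceeded sham by 2.46 (SE 0.24, adjusted p = 2.58e-05) and 1.85 (SE 0.19, adjusted p = 3.22e-05). Their remote zone levels ran from 146 through a median of 238 to 1023 CPM.

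Fstl3, the other secreted antagonist of activins, rose in the infarct and border zones. Sham infarct zones held 2.56, 3.55 and 4.95 CPM and untreated MI hearts 5.84, 7.63 and 8.58 CPM, without overlap (log2 fold change 1.06, SE 0.19, adjusted p = 0.00124). Border zone hearts held 3.01, 3.302 and 4.16 CPM in sham and 3.84, 6.02 and 11.3 CPM in untreated MI (1.04, SE 0.24, adjusted p = 0.0069). The remote zone had 3.27, 3.81 and 4.68 CPM against 2.92, 5.33 and 8.28 CPM, an overlapping pair of groups whose difference of 0.57 (SE 0.24, adjusted p = 0.0996) did not pass. Without sham replicate 5 it was 0.64 (SE 0.25, adjusted p = 0.0478) and was called. With the cell sheet Fstl3 was 3.80, 7.88 and 11.98 CPM, then 4.91, 6.95 and 10.4 CPM, then 2.59, 6.06 and 11.6 CPM, in the order infarct, border, remote. The differences from untreated MI were 0.04, 0.05 and 0.08, and the widest interval, in the remote zone, ran from -0.66 to 0.82. Against sham the infarct and border zones rose by 1.11 (SE 0.28, adjusted p = 0.00513) and 1.07 (SE 0.21, adjusted p = 0.00192).

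Myofibroblast and fibroblast markers moved with these 5 genes. The 3 myofibroblast markers (Postn, Acta2 and Cthrc1) were called higher after MI in each zone, and of the 5 fibroblast markers 3 were higher in the infarct zone and 4 in each of the others. No marker of either list was at 0 throughout a group. The summed myofibroblast level of the infarct zone was 47.2 to 369 CPM in sham and 928 to 3240 CPM in untreated MI, and that of the border zone 45.3 to 328 CPM and 692 to 4650 CPM. Macrophage markers were also higher, 4 of 5 in the infarct and border zones, where sham replicate 5 had a summed level of 1230 and 1240 CPM beside sham medians of 249 and 253 CPM. Their part in the rise of the activin and follistatin genes was not tested.

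For Inhba, Fst and Fstl1 in the remote zone, the call against untreated MI turned on 1 of the 6 treated hearts. Cell sheet replicate 1 had 29.3 CPM of Inhba, 18.8 of Inhbb, 16.2 of Fst, 1023 of Fstl1 and 11.6 of Fstl3. The other 5 treated hearts had 10.4 to 12.6, 6.90 to 11.9, 0.650 to 2.58, 146 to 365 and 2.59 to 6.75 CPM. With all 6 hearts the differences from untreated MI were -0.67 for Inhba (SE 0.30, adjusted p = 0.129), -0.85 for Fstl1 (SE 0.47, adjusted p = 0.21) and -0.26 for Fst (SE 0.78, adjusted p = 0.837). Without replicate 1 they were -1.03 for Inhba (SE 0.20, adjusted p = 0.00155), -1.53 for Fstl1 (SE 0.31, adjusted p = 0.00179), -1.83 for Fst (SE 0.51, adjusted p = 0.0122) and -1.34 for Inhbb (SE 0.29, adjusted p = 0.00265). Fstl3 stayed uncalled, at -0.21 (SE 0.30, adjusted p = 0.598). The same library held the highest summed fibroblast and myofibroblast levels of its group, 13600 and 3400 CPM beside medians of 2060 and 270 CPM. Untreated MI remote zones had medians of 5460 and 1120 CPM for these lists. Between treated and untreated MI remote zones 1 of 5 fibroblast and 0 of 3 myofibroblast markers were called lower, and 2 of 3 neutrophil markers (S100a8, S100a9 and Csf3r) were lower. The summed neutrophil level was 2.45, 4.73 and 15.3 CPM in treated and 10.3, 25.3 and 72.4 CPM in untreated MI hearts. The part of these cells in the difference was not tested.

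**Figure D3:**
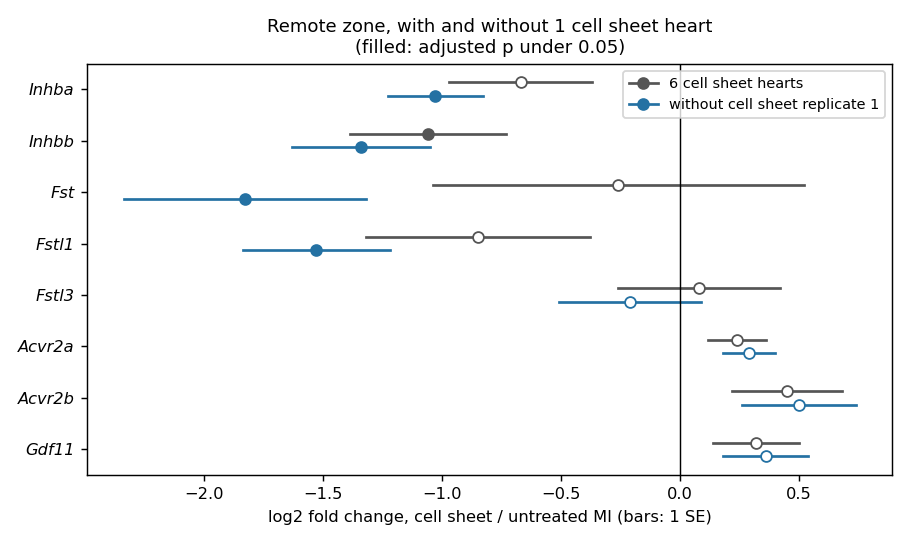
Log2 fold change (x axis) of 8 members between cell sheet-treated and untreated MI hearts in the remote zone, with all 6 treated hearts (grey) and without cell sheet replicate 1 (blue). Bars are 1 SE and filled points have an adjusted p under 0.05. Inhbb is filled in both analyses, and Inhba, Fst and Fstl1 are filled only without replicate 1.

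Whether the effect of the cell sheet differed between the border and remote zones was tested with the animal as a block. None of 8 members was called by edgeR or DESeq2, with 2 at an unadjusted p under 0.05, and the background was 0 of 16784 genes by edgeR, 3430 at an unadjusted p under 0.05 and 1081 by DESeq2. The members at an unadjusted p under 0.05 were Fstl1, at 1.04 (SE 0.44, adjusted p = 0.219), and Acvr2a, at 0.39 (SE 0.14, adjusted p = 0.163). Without cell sheet replicate 1, Fstl1 was called, at 1.41 (SE 0.25, adjusted p = 0.0361).

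Acvr2a, a type II receptor for activins and myostatin, was lower after MI and higher with the cell sheet in the border zone. Border zone levels were 14.3, 20.2 and 23.7 CPM in sham, 12.5, 13.9 and 16.9 CPM in untreated MI and 18.8, 21.2 and 23.5 CPM in treated hearts. All 6 treated hearts lay above all 6 untreated MI hearts, and the difference of 0.60 (SE 0.09, 95% interval 0.40 to 0.80, adjusted p = 0.00152) was called in all 18 alternatives. Against sham, untreated MI was lower by -0.44 (SE 0.14, adjusted p = 0.0239), a call held in 11 of 18 alternatives, and treated hearts differed by 0.13 (SE 0.13, 95% interval -0.15 to 0.42). Treated infarct zones differed from sham by -0.35 (SE 0.17, adjusted p = 0.106), and without sham replicate 5 by -0.46 (SE 0.13, adjusted p = 0.00656), which was called. Infarct zone Acvr2a stood at 12.6, 20.4 and 25.1 CPM in sham, 9.43, 14.0 and 19.4 CPM in MI and 12.5, 14.99 and 19.4 CPM with the sheet. The remote zone levels were, in the same order, 16.2, 25.8 and 27.2, at 15.02, 18.9 and 23.0, and at 18.5, 24.3 and 25.2 CPM. The groups overlapped in both zones, with MI differences of -0.50 (SE 0.20, adjusted p = 0.0577) and -0.34 (SE 0.14, adjusted p = 0.0866), and cell sheet differences from MI of 0.15 (SE 0.18, adjusted p = 0.858) and 0.24 (SE 0.12, adjusted p = 0.173). Without sham replicate 5 the MI differences were -0.60 (adjusted p = 0.0127) and -0.42 (adjusted p = 0.00483). On the infarct and border counts summed per animal, the cell sheet difference was 0.39 (SE 0.10, adjusted p = 0.0307), and without cell sheet replicate 1 it was 0.38 with an adjusted p of 0.0613.

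The border zones of several treated hearts also held adipocyte markers. The summed level of Adipoq, Plin1, Cidec and Lep was 0.0485, 195 and 506 CPM (lowest, median and highest) in treated hearts and 0, 0.744 and 26.8 CPM in untreated MI. Of the 3 adipocyte markers tested, 2 were called higher. Endothelial markers moved in the same direction, with scores of 7.57, 7.79 and 8.02 in treated and 7.09, 7.46 and 7.58 in untreated MI hearts, and 1 of 4 was called higher. Over all 54 libraries, Pearson's r of Acvr2a (log2 CPM) was -0.02 with the adipocyte score and 0.78 with the endothelial score. The part of these cells in the Acvr2a difference was not tested. Without cell sheet replicate 1, whose cardiomyocyte score was the lowest of its group, the Acvr2a difference was 0.61 (SE 0.10, adjusted p = 0.00306).

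Acvr2b, the other type II receptor, was lower than in sham in the infarct zone of both infarcted groups. In the infarct zone it was 4.64, 10.2 and 17.3 CPM in sham, 5.00, 6.95 and 7.96 CPM in untreated MI and 5.43, 5.71 and 10.3 CPM with the cell sheet. The difference of MI from sham was -0.66 (SE 0.25, adjusted p = 0.0464) and that of treated hearts from sham -0.72 (SE 0.29, adjusted p = 0.0493). These calls were lost in 14 and 13 of 18 alternatives, and that of treated hearts had an adjusted p of 0.0832 without cell sheet replicate 1. The border zone had 3.63, 10.2 and 14.8 CPM in sham, 4.54, 6.27 and 8.61 CPM in MI and 6.60, 8.38 and 10.3 CPM with the sheet. In the remote zone the corresponding levels were 5.03, 12.9 and 15.8, then 5.91, 6.94 and 12.5, then 9.13, 10.5 and 17.3 CPM. Groups overlapped in each zone, and sham replicate 5 was the lowest sham heart in all 3. Without it the MI differences were -0.82 (adjusted p = 0.00227), -0.84 (adjusted p = 0.00239) and -0.67 (adjusted p = 0.0208), compared with -0.66 (adjusted p = 0.076) and -0.51 (adjusted p = 0.2) in the border and remote zones with all sham hearts. Treated border zones differed from sham by -0.22 (SE 0.27, adjusted p = 0.527) with all hearts and by -0.40 (SE 0.16, adjusted p = 0.0485) without sham replicate 5. The cell sheet differences of Acvr2b from MI were -0.06, 0.47 (SE 0.16, adjusted p = 0.0589) and 0.45 (SE 0.23, adjusted p = 0.187). Under scaling by library size alone, which moved the median of all genes from -0.02 to 0.24 in the infarct zone and from -0.02 to 0.17 in the border zone, the MI differences of Acvr2b in the infarct zone and Acvr2a in the border zone were -0.38 and -0.24, and neither was called.

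Gdf11, a ligand closely related to myostatin, was called in no comparison of the main analysis. Its sham levels were 8.36, 13.01 and 14.1 CPM in the infarct zone, 7.87, 13.2 and 14.4 CPM in the border zone and 6.40, 11.5 and 14.9 CPM in the remote zone. Untreated MI hearts held 10.8, 13.6 and 16.4, then 8.56, 12.02 and 17.0, then 8.07, 11.3 and 15.02 CPM, and the log2 differences from sham were 0.18 (95% interval -0.16 to 0.51), 0.02 (-0.37 to 0.41) and -0.01 (-0.45 to 0.43). Treated hearts held 14.0, 15.1 and 18.2, then 11.9, 15.6 and 17.4, then 11.8, 12.4 and 19.7 CPM. The medians of treated hearts were the highest of the 3 groups in each zone, with overlap. Their difference from sham was 0.38 (SE 0.15, adjusted p = 0.0516) in the infarct zone, and without sham replicate 5 it was 0.27 (SE 0.11, adjusted p = 0.0474). It was called in 4 of 18 alternatives. The treated border zone against sham and the MI infarct zone against sham were each called in 1 of 18.

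**Figure D4:**
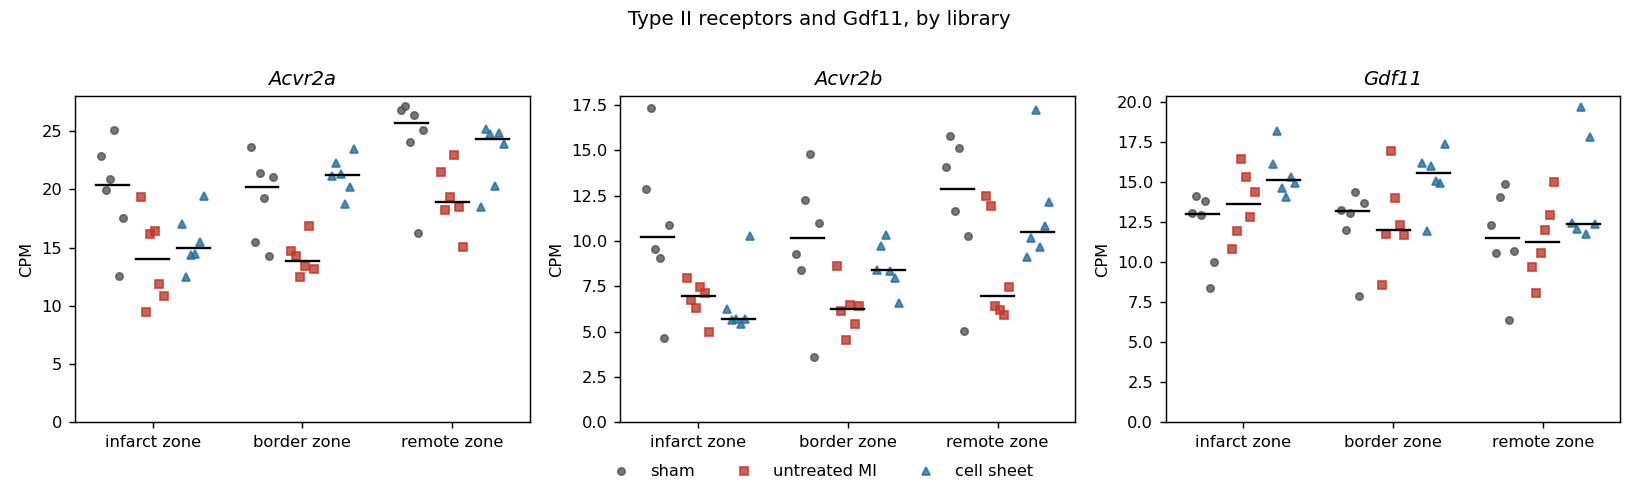
CPM of the type II receptor genes Acvr2a and Acvr2b and of the ligand gene Gdf11 in each library, by zone and treatment. Points are hearts and lines are medians. In the border zone the 6 cell sheet-treated hearts hold 18.8 to 23.5 CPM of Acvr2a and the 6 untreated MI hearts 12.5 to 16.9 CPM, while Gdf11 overlaps between groups.

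Mstn, the myostatin gene, was counted at no more than 27 reads in any library. With all hearts it passed the low-count filter in 4 of the 13 comparisons. Sham hearts held 9 to 18 counts in the infarct zone, 6 to 27 in the border zone and 8 to 21 in the remote zone, or 85, 82 and 80 counts over 6 hearts. Untreated MI hearts held 2 to 22, 0 to 23 and 6 to 21 counts, 56, 49 and 64 in all. Treated hearts held 0 to 6, 0 to 5 and 3 to 10 counts, 12, 8 and 40 in all. Of the 6 treated border zones, 4 had 0 counts, which allows up to 0.114 to 0.148 CPM per library at 3 counts. This limit covers counting error only.

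After MI, Mstn differed from sham by -1.29 in the infarct zone (SE 0.54, adjusted p = 0.0638), and its remote zone value was -0.31 (SE 0.41, adjusted p = 0.6), neither of which passed. Without sham replicate 5 the infarct zone value was -1.44, with an adjusted p of 0.0345. Fitted without the low-count filter, treated hearts were below sham by -3.38 in the infarct zone (SE 0.62, adjusted p = 0.00123) and by -3.88 in the border zone (SE 0.88, adjusted p = 0.00574). All 6 treated hearts lay below all 6 sham hearts in both zones, on CPM. Against untreated MI, the same fit gave -2.13 (SE 0.80, adjusted p = 0.606) and -2.74 (SE 1.10, adjusted p = 0.166), and -2.50 on the 2 zones summed per animal (SE 0.60, adjusted p = 0.0315). The remote zone of treated hearts differed from untreated MI by -0.81 (SE 0.46, adjusted p = 0.293). With the filter, Mstn was tested and called lower in some fits that left out 1 heart. Treated infarct zones differed from sham by -3.38 without cell sheet replicate 1 (adjusted p = 0.00212) and by -3.59 without sham replicate 5 (adjusted p = 0.000187). On summed counts the difference from untreated MI was -2.36 without cell sheet replicate 1 (adjusted p = 0.043). Cardiomyocyte markers were low in the same groups, with a summed median of 1630 CPM in treated, 7210 in untreated MI and 40400 in sham infarct zones. The border zone medians were 13200, 13500 and 39800 CPM. Their part in the Mstn values was not tested.

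Gdf15 was likewise counted at 19 reads or fewer. With all hearts it passed the filter only on the summed infarct and border counts, where treated and untreated MI hearts differed by -0.32 (SE 0.38, adjusted p = 0.64). In the infarct zone 4 of 6 sham hearts had 0 counts and the group had 6 in all, while untreated MI hearts held 2 to 19 and treated hearts 4 to 17, 55 and 58 in all. Border zone totals were 10, 42 and 25, and remote zone totals 22, 17 and 24, in sham, untreated MI and treated hearts. Without the filter, the infarct zone difference from sham was 2.29 for MI (SE 0.97, adjusted p = 0.0986) and 2.41 for treated hearts (SE 0.86, adjusted p = 0.045). In the border zone MI differed from sham by 1.60 (SE 0.74, adjusted p = 0.146), and in the remote zone by -0.37 (SE 0.80, adjusted p = 0.796).

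**Figure D5:**
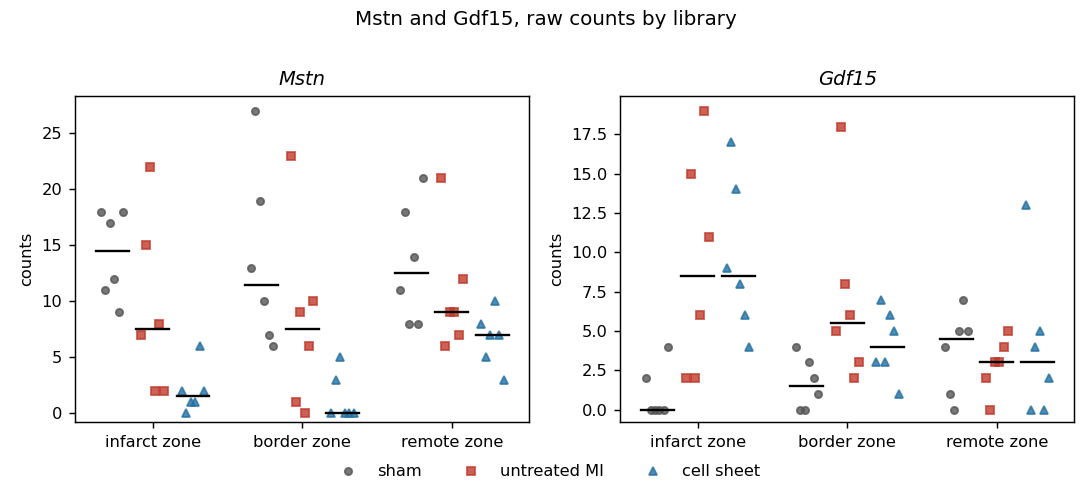
Raw counts of Mstn and Gdf15 in each library, by zone and treatment, with lines at group medians. Treated hearts hold 0 to 6 counts of Mstn in the infarct zone and 0 to 5 in the border zone, and sham hearts 9 to 18 and 6 to 27; for Gdf15, 4 of 6 sham infarct libraries are at 0.

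Other genes of the pathway were followed as lists by role, whose counts stand beside the shares of all genes called, given above for each comparison. Of 8 further ligands of the family, Inha, the inhibin alpha subunit whose dimers oppose activins, was the only one tested after MI, and it was lower in the infarct zone by -1.29 (SE 0.34, adjusted p = 0.00884). The infarct zone medians of Inha were 56.0 CPM in sham, 21.6 in untreated MI and 9.12 in treated hearts, beside the cardiomyocyte levels given for Mstn. Of 8 receptors and co-receptors, 2 of 5 tested were higher after MI in the infarct zone, the type I receptors Tgfbr1 (1.35, adjusted p = 0.0196) and Acvr1b (0.66, adjusted p = 0.00247). The border zone had 1 higher, Acvr1b (0.52, adjusted p = 0.0209), and the remote zone 0 of 5.

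With the cell sheet, 2 of 6 receptors tested were higher than in untreated MI in the border zone. Acvr1c, a type I receptor known from fat tissue, had medians of 16.7 CPM in treated and 0.1104 CPM in untreated MI hearts (6.24, SE 1.27, adjusted p = 0.00605), in the group whose adipocyte markers are given above, and their part was not tested. Tgfbr3 (betaglycan, a co-receptor of inhibin) rose by 1.04 in the border zone (SE 0.24, adjusted p = 0.0104), and its remote zone rise was 0.47 (SE 0.12, adjusted p = 0.0206), where it was 1 of 5 receptors called. None of 5 was called in the infarct zone.

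Among 11 antagonists and processing enzymes, 5 of 9 tested were called after MI in the infarct zone, 4 higher and 1 lower, where 49.9% of all genes were called. They included Bmp1, a protease that frees myostatin from its propeptide (1.76, adjusted p = 3.6e-05), the proprotein convertase Pcsk5 (1.70, adjusted p = 0.000221) and the GDF-binding protein Wfikkn2 (1.26, adjusted p = 0.00272), while Pcsk6 was lower (-0.85, adjusted p = 0.0163). The border zone also had 4 higher and 1 lower, and the remote zone 3 higher and 1 lower. Furin, another proprotein convertase, was higher in the infarct zone (0.52, adjusted p = 0.00442) and lower in the remote zone (-0.35, adjusted p = 0.0256). Treated border zones exceeded untreated MI in Wfikkn2 (1.05, adjusted p = 0.0196) and Furin (0.35, adjusted p = 0.0219), and in the remote zone Dcn, a matrix proteoglycan that is also on the fibroblast list, was lower (-0.60, adjusted p = 0.0362). The infarct zone had 0 of 9 called between treated and untreated MI.

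The Smad list held Smad2, Smad3 and Smad4 together with genes that restrain Smad signalling, such as Smad7, Ski, Smurf1 and Smurf2. Its counts are therefore not a measure of Smad signalling, which was not tested. In the infarct zone 3 of 8 tested were higher after MI, Ski, Smurf1 and Smurf2, with 0.39 for Smurf1 (adjusted p = 0.0188). Each of the other zones had 1 of 8 higher. Against sham, treated infarct zones were higher for 6 of 8 (28.6% of all genes) and treated border zones for 3 of 8 (20.4%), with differences in Ski of 0.54 (adjusted p = 0.00115) and 0.53 (adjusted p = 0.000686). Smad3 was the 1 of 8 higher in treated than in untreated MI border zones (0.29, adjusted p = 0.0409). All 4 muscle ubiquitin ligases, which tag muscle proteins for degradation, were lower after MI in the infarct and remote zones, and 3 of 4 in the border zone. Trim63 had -2.14 (adjusted p = 0.0109) and Fbxo32 -1.70 (adjusted p = 0.00434) in the infarct zone. In the remote zone Fbxo32 was lower after MI by -0.98 (adjusted p = 0.00339) and higher in treated than in untreated MI hearts by 0.83 (adjusted p = 0.0376), the 1 of 4 called.

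Genes of the integrated stress response, the pathway known to induce Gdf15, moved in both directions. In the infarct zone 3 of 12 tested were called after MI, beside 49.9% of all genes, with Sesn2 higher (0.71, adjusted p = 0.0409) and Ddit3 and Ppp1r15a lower (-0.91, adjusted p = 0.00266, and -0.40, adjusted p = 0.021). The border zone had 1 higher and 1 lower of 11, and the remote zone 0 of 10. Treated border zones were lower than untreated MI in 2 of 12, Trib3 (-0.73, adjusted p = 0.0441) and Atf4 (-0.56, adjusted p = 0.00538).

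The genes most like each member were found by Pearson's r of log2 CPM over the 54 libraries, which share animals, zones and composition, among 13284 genes. Fstl1 was nearest to Loxl1 (0.987), Dpysl3 (0.978) and Mfap4 (0.976), and Fst to Glb1 (0.972), Card14 (0.968) and Runx1 (0.965). Inhba was nearest to Farp1 (0.899) and Inhbb to Emp1 (0.871), while Fstl3 was nearest to Col8a1 (0.865) and Ccn2 (0.851). Acvr2a was nearest to Pm20d1 (0.868) and Acvr2b to Mtss1 (0.879). The values for Gdf11 (Trpm4, 0.772), Mstn (Chchd7, 0.812) and Gdf15 (Neu1, 0.694) were lower.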

How the data were processed

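The authors aligned reads from poly(A)-enriched RNA with STAR to mRatBN7.2 and deposited 1 table of raw counts per gene and library; the program that counted them and its handling of strand are not given in the sources used here. The 5 summary lines of a table, 17.0% to 42.8% of its total, were left out. The labels call a group's libraries technical replicates whereas the paper describes 6 hearts per group in the methods but 5 to 6 animals where it gives results; 1 library per heart and zone was assumed, and p-values measure the spread between these libraries. No pair of libraries agreed within sampling noise, and 0 columns of other samples were used.

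The deposited counts were tested with edgeR 4.0.16 (R 4.3.3, limma 3.58.1; TMM, filterByExpr, quasi-likelihood F test, Benjamini-Hochberg adjustment over all genes tested, threshold 0.05), each fit holding 1 pair of groups. Infarct and border counts were also summed per animal. Comparisons between zones had the animal as a block, since the 2 libraries of 1 number came from the same heart; their deviations correlated at -0.36 to 0.55. The scripts were tested on simulated data first. Alternatives were DESeq2 1.42.0, no low-count filter, library size without TMM, a filter of at least 10 counts throughout, the replicate number as a block (or no block), all 54 libraries in 1 fit and leaving out each animal. Log2 CPM of scores had an offset of 0.1. All 10 members are named; of the other lists, up to 4 called genes per comparison with the largest change; and per member up to 3 genes with the highest correlation at a mean log2 CPM of at least 1. The members, lists and tests were chosen with earlier results of these data known. Promoter sequences are from RefSeq GRCr8.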

Additional observations from a re-analysis of the deposited data

Results flagged for a closer look

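Each of the 90 groups of 6 hearts (10 genes, 9 groups) was searched for a heart far from the others, by Dixon's ratio at its 95% critical value. The ratio was taken on log2 CPM with an offset of 0.1, and the values below are in CPM. Chance flags about 1 in 20 groups, and 10 were found. In sham replicate 5 they were Fst in the infarct zone (4.295 CPM, high), Inhba in the border zone (4.771 CPM, low), Gdf11 in the border zone (7.872 CPM, low) and Acvr2a in the remote zone (16.22 CPM, low). In cell sheet-treated hearts they were Inhba in the remote zone of replicate 1 (29.34 CPM, high), Inhbb in the border zone of replicate 2 (9.377 CPM, low) and Acvr2b in the infarct zone of replicate 6 (10.27 CPM, high). In untreated MI hearts they were Fst in the infarct zone of replicate 1 (3.503 CPM, low), Mstn in the remote zone of replicate 1 (1.611 CPM, high) and Gdf15 in the remote zone of replicate 2 (0 CPM, low). Gdf15 had only 0 to 5 counts per library in that last group.

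The effect of MI on Fst differed between zones: it was larger in the infarct than in the remote zone by 1.88 on the log2 scale (edgeR, animal as a block, adjusted p = 0.017).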

How the results depend on the processing

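Of 1854 values of members under the alternatives, 1688 kept their direction and side of the threshold, 57 lost a call, 38 gained one and 71 changed sign, none of these in a result called in the main analysis. Signs changed, leaving out 1 animal (lowest to highest), for treated against untreated MI in Fst (infarct -0.20 to 0.24, remote -1.83 to 0.04, summed -0.28 to 0.01), Fstl1 (infarct 0 to 0.25, summed -0.18 to 0.05), Fstl3 (infarct -0.13 to 0.18, border -0.07 to 0.23, remote -0.21 to 0.23, summed -0.07 to 0.16), Inhba (summed -0.07 to 0.12) and Acvr2b (infarct -0.24 to 0.01). Against sham they changed for treated remote zones in Fst (-0.53 to 1.82) and Acvr2b (-0.23 to 0.03), and for MI in Gdf11 (border -0.08 to 0.11, remote -0.13 to 0.07). Between MI zones Inhba ran from -0.15 to 0.11. For the effect of MI between zones Inhba ran from -0.01 to 0.34 and Acvr2b from -0.19 to 0.04, and for that of the sheet Fstl3 from -0.17 to 0.36, Acvr2b from -0.11 to 0.09 and Gdf11 from -0.12 to 0.14. Other settings that turned a sign were library size alone (Acvr2b 0.07 in treated against sham border zones and 0.05 for the MI effect between zones, Gdf11 0.13 in MI against sham remote zones, Inhba 0.04 between MI zones), no low-count filter (Gdf11 0.01 in MI against sham remote zones, and Acvr2b -0.01 and Gdf11 -0.02 for the sheet effect between zones, where DESeq2 also gave Gdf11 -0.02) and the replicate block (Fstl3 -0.04 in treated against MI infarct zones). Members called between treated and untreated MI hearts changed as follows, with the share of all genes called in brackets. The border zone went from 1 (18.0%) to 2 with DESeq2 (13.1%), at least 10 counts (21.1%) or library size alone (17.5%). With all 54 libraries it had 3 (17.6%). The remote zone went from 1 (17.1%) to 0 with no low-count filter (6.46%) or the replicate block (0.0130%). Summed counts went from 1 (12.1%) to 2 with DESeq2 (10.4%) or no filter (4.51%). With the replicate block they gave 0 (2.65%). Against sham, the treated remote zone changed from 0 to 1 with all 54 libraries. In MI hearts the zones gave 1 (33.1%) instead of 3 (36.4%) with no replicate block. The effect of MI between zones gave 0 (36.6%) instead of 1 (28.9%) with at least 10 counts, where Fst was not tested. With library size alone it gave 2 (32.8%). Leaving out 1 animal gave 5 to 8, 5 to 7 and 3 to 7 members called for MI against sham in the infarct, border and remote zones; 0 to 0, 1 to 3 and 0 to 4 for treated against MI; 5 to 9, 5 to 6 and 0 to 0 for treated against sham; 0 to 2 on summed counts; 1 to 3 between MI zones; and 1 to 1 and 0 to 1 for the effects of MI and of the sheet between zones. For the fits leaving out 1 animal, and for the treated remote zone with all 54 libraries, the share of all genes is not given here. Their counts of members therefore have no background beside them. The cause of these changes was not tested.

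Same-numbered hearts of different groups shared only a number, with correlations of deviations between -0.81 and 0.67. Over all genes, the replicate block left 2 called between treated and untreated MI remote zones, instead of 2623. Library size alone raised the share of higher genes among those called from 45.5% to 67.1% (infarct), 44.2% to 64.1% (border) and 45.1% to 68.6% (remote) for MI against sham, from 49.5% to 66.3% (infarct) and 46.8% to 71.2% (border) for treated against sham, from 47.2% to 57.3% (border) for treated against MI, where the remote zone went from 60.2% to 48.5%, from 50.3% to 63.2% between MI zones and from 47.0% to 62.5% for the effect of MI between zones. Depth limits Mstn and Gdf15, for which 3 counts are 0.114 to 0.265 CPM.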
